A study of Mus spretus with 12 samples.

Results

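The comparison described here set 4 liver arrays of mice fed the pesticide residue p,p'-DDE against 4 liver arrays of mice fed the control diet, chosen by their sample titles, out of 12 arrays in all. All animals were male Mus spretus of the inbred strain SPRET/EiJ, a wild-derived mouse, aged 20 months when feeding began and 22 months when the liver was taken. The control group ate Teklad rodent diet with corn oil. The DDE group ate that diet with p,p'-DDE at 450 mg/kg, dissolved in corn oil, for 60 days. The remaining 4 arrays are of mice given p,p'-DDE in the diet and must of Pedro Ximenez grapes in the water (polyphenols at 85 mg/L, sugar at 31 g/L), and their levels are given only beside a few genes. The series' design text counts 4 mice in the control group and 4 in the must group, gives no number for the DDE group and does not say whether RNA was pooled, so the p-values below reflect how much arrays of a group varied, and part of that may be technical.

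p,p'-DDE is the long-lived breakdown product of the insecticide DDT and is stored in fat. The liver meets such lipophilic compounds with nuclear receptors, chiefly CAR (Nr1i3) and PXR (Nr1i2), which pair with RXR and switch on enzymes in 3 steps: cytochromes P450 oxidise the compound, transferases attach glucuronic acid, glutathione or sulfate, and transporters carry the product out into bile or blood. CAR activators such as phenobarbital are known for inducing the Cyp2b and Cyp2c genes, for proliferation of the smooth endoplasmic reticulum and for liver growth in rodents. The arrays asked what the residue changed in the liver of aged mice.

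Each array read 59305 spots other than controls. Values are log2 signal relative to the 75th percentile of the same array, so 0 is the level of that percentile, and a change is the mean of the DDE arrays minus the mean of the control arrays. Of 18678 genes tested with limma, 9403 (50.3%) passed an adjusted p of 0.05, of which 4482 (24%) were higher and 4921 (26.3%) lower in the DDE group. The values of the 4 DDE arrays lay wholly above or below those of the 4 control arrays for 8664 genes (46.4%). The high share goes with a small spread between arrays of a group (median SD 0.106), and the median called change was 1.29-fold. Any list below has to be read against these shares. "Rose" and "fell" are used only of called genes. Markers of adrenal, islet, fat, muscle and skin also differed between the groups, and their values are given after those of the liver.

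Large changes were fewer and more of them were falls. At least 2-fold, 205 genes were higher and 568 lower. At least 4-fold, 45 were higher and 117 lower, and at least 8-fold, 17 were higher and 45 lower. With only genes measured above background on each of the 8 arrays, the counts at 2-fold were 126 higher and 352 lower. Of the 829 dimmest genes 38.2% were called and of the 1112 brightest 62.1%. Some genes did not exceed background on a single array of 1 group, and for those the size is a lower limit ("at least"), measured from the lowest signal that counted as above background. Median centring of the arrays, used instead of the 75th percentile, moved the median change of all genes from -0.0239 to 0.207 and turned the calls to 9019 higher and 2078 lower, and those at 2-fold to 373 higher and 390 lower. Small falls are therefore changes relative to the other genes, and list medians are best read against the median of all genes.

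**Figure D1:**
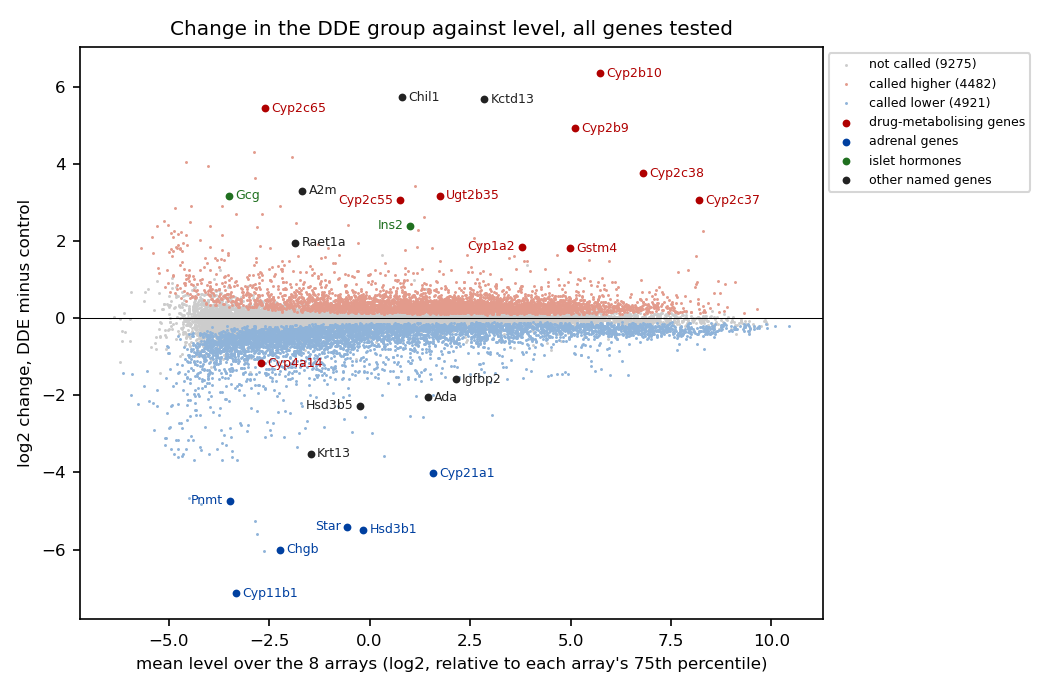
Log2 change (DDE minus control) against the mean level over the 8 arrays for the genes tested, with called genes in red (4482 higher) and blue (4921 lower) and named genes in darker points. The rises at high levels are led by Cyp2b10, Cyp2b9, Cyp2c38 and Cyp2c37, while Cyp11b1, Chgb, Hsd3b1 and Star, genes of the adrenal, lie among the deepest falls.

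The array reads each gene through a 60-base probe, and probes of 3 genes with large rises are shown here. Cyp2b10 and Cyp2b9 are genes of 1 subfamily on the same chromosome, so the part of the probes nearest in sequence is shown. The probes lie at mm9 positions chr7:26711522-26711581 and chr7:26995607-26995666, both on the plus strand. The capitals mark the longest run of bases that the 2 probes of 60 bases share, which is 10 bases long. A second Cyp2b10 probe, at chr7:26702056-26702115, is shown from its first base. Each line gives 30 bases, 5′ to 3′, read from the scanner files, which do not say whether a probe lies in an exon or a UTR.
Cyp2b10, bases 31 to 60 of the probe: gtgctaatggactctgtaTAAGGTCTGAat
Cyp2b9, bases 1 to 30 of the probe: TAAGGTCTGAtttctatgtctacagacttg
Cyp2b10, second probe, bases 1 to 30: tcagagattttcagatcttatacctattgg
Both Cyp2b10 probes rose, by 6.36 ± 0.046 at the first and by 9.23 ± 0.065 at the second (log2 change ± SE over the probes kept).

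Cyp2b10 oxidises drugs and steroids and is the classical CAR target. On the control arrays it read 2.54, 2.49, 2.56 and 2.62, and on the DDE arrays 9, 8.86, 8.9 and 8.87. The groups lay far apart, and the rise was 82-fold (adjusted p = 1.9e-15). Cyp2b9, a CAR target that is female-biased in laboratory mice, read between 2.62 and 2.72 in control and between 7.48 and 7.62 in the DDE group, a rise of 30.4-fold (adjusted p = 8.05e-14). Cyp2b13, at chr7:26880905-26880964 between these 2, was dim throughout (-3.08 to -2.69 against -2.07 to -1.76) and rose 1.96-fold (adjusted p = 7.4e-06). The 3 Cyp2b genes measured thus all rose, but to very unequal degree.

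Kctd13 encodes an adaptor of the CUL3 ubiquitin ligase and is known from brain development rather than from the liver. Its brighter probe read 0.06, -0.08, -0.06 and 0.11 in control and 5.57, 5.75, 5.64 and 5.79 in the DDE group, a change as large as those of the leading P450 genes (51.3-fold, adjusted p = 8.05e-14). Its other probe did not pass the test. The start of each probe, on the plus strand of chromosome 7 at chr7:134074067-134074126 for the brighter and chr7:134088875-134088934 for the other, is shown because they read different places under 1 gene name.
Kctd13, brighter probe, bases 1 to 30: tggaatcagtttctaacaatgtattagccc
Kctd13, other probe, bases 1 to 30: gccatctttctcttaccatctgattccctt
The other probe read between -3.77 and -3.18 in control and between -3.69 and -3.08 in the DDE group, groups that overlap, with a change of 0.1 ± 0.14 (SE, adjusted p = 0.598 over the probes). The rise was thus read at the brighter probe only. The same held for Med27, a Mediator subunit, whose brightest probe rose by 1.65 and whose other probes changed by 0.09 and 0.12. Another kept probe read 100 named genes called at 2-fold or more and well above background on at least 1 array of each group. Of those genes, 8 had such a probe with a change under 1.2-fold, among them Kctd13, Med27, Mvp, Nrg1 and Ryr1.

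Chil1 encodes a secreted chitinase-like protein without chitinase activity that is raised in injured and inflamed tissue. It read -2.26, -2.13, -2.02 and -1.78 in control and 3.62, 3.65, 3.68 and 3.76 in the DDE group. This 53-fold rise (adjusted p = 1.87e-12) was the second largest among genes above background on all 8 arrays. A2m, a protease inhibitor of plasma, read from -3.71 to -2.93 in control and from -0.15 to 0.05 in the DDE group (9.94-fold, adjusted p = 7.74e-06). Both genes had 1 kept probe, so no second reading of them was made.

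Of 83 cytochrome P450 genes tested, 46 rose, 16 fell and the median log2 change was 0.353 beside -0.0239 for all genes. The subfamilies differed. All 4 Cyp2a genes rose, by 0.35 to 1.27. Of 10 Cyp2d genes 8 rose and 1, the pseudogene Cyp2d37-ps, fell, and Cyp2d9, male-biased in laboratory mice, rose most (1.05). Cyp3a11, the main PXR target, read 6.68 to 6.82 in control and 7.41 to 7.57 in the DDE group, a rise of 1.65-fold (adjusted p = 1.51e-06), and 6 of 8 Cyp3a genes rose with a median of 0.453, of which Cyp3a25 and Cyp3a57 cannot be told apart with certainty, since their probes share 29 bases. Cyp1a2, which the aryl hydrocarbon receptor and CAR both induce, read 2.98, 2.86, 2.66 and 2.93 in control and 5.2, 4.35, 4.79 and 4.5 in the DDE group. Its groups did not overlap (3.6-fold, adjusted p = 1.13e-05), but the DDE arrays spread more widely than for most genes (SD 0.37). Cyp1a1, the more specific target of the aryl hydrocarbon receptor, changed by 0.57 and did not pass the test (adjusted p = 0.0723). Cyp1a1 passed with quantile normalisation (0.81, adjusted p = 0.0145), also after normexp (0.31, adjusted p = 0.0101), and with median centring (0.8, adjusted p = 0.0109). The authors' deposited values gave 0.93 (adjusted p = 0.0121). It also passed with the slide as a block (0.7, adjusted p = 0.02) and without DDE replicate 1 (0.73, adjusted p = 0.0312).

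P450 genes of fatty acids and hormones went other ways. Cyp4a14, an omega-hydroxylase that PPAR alpha induces, fell 2.25-fold (-2.25 to -1.94 against -3.51 to -2.87, adjusted p = 2.31e-05), while the male-biased Cyp4a12a and Cyp4a12b rose by 0.91 and 0.93. Cyp26a1, which breaks down retinoic acid, rose by 1.01, and Cyp27a1, of bile acid synthesis, by 0.59. Cyp2s1, Cyp46a1 and Cyp2j9 fell by 0.79, 0.8 and 0.59 on the log2 scale. The 3 deepest falls of the family, Cyp11b1, Cyp11a1 and Cyp21a1, belong to the adrenal cortex and are taken up with its markers below.

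The Cyp2c genes showed the clearest order. All 16 were called, 10 higher and 6 lower, and along chromosome 19 the directions lay in blocks. From the lowest coordinate, the first 6 genes rose: Cyp2c55 by 3.06, Cyp2c65 at least 22.9-fold, Cyp2c66 at least 12.1-fold, the pseudogene Cyp2c53-ps by 4.19, Cyp2c29 by 1.62 and Cyp2c38 by 3.76. The next 5, Cyp2c39, Cyp2c67, Cyp2c68, Cyp2c40 and Cyp2c69, fell by 0.62, 0.85, 0.9, 0.62 and 0.79 on the log2 scale. Cyp2c37, Cyp2c54 and Cyp2c50 followed with rises of 3.06, 1.24 and 2.27, and the last 2 genes changed by less than 1.2-fold. This order is a description of the probes' mm9 positions.

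Per array, Cyp2c38 read 4.9, 4.88, 4.82 and 5.12 in control and 8.76, 8.65, 8.68 and 8.67 in the DDE group. Cyp2c65 stayed at background level on the control arrays and read -0.09, 0.18, 0.29 and 0.14 in the DDE group. On the falling side Cyp2c68 read 5.44 to 5.59 in control and 4.57 to 4.66 in the DDE group (adjusted p = 3.8e-08). None of these groups overlap. Cyp2c67 and Cyp2c68 cannot be told apart with certainty, since their probes share a run of 25 bases. That was the only one of 120 pairs of Cyp2c probes to share 20 bases or more.

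**Figure D2:**
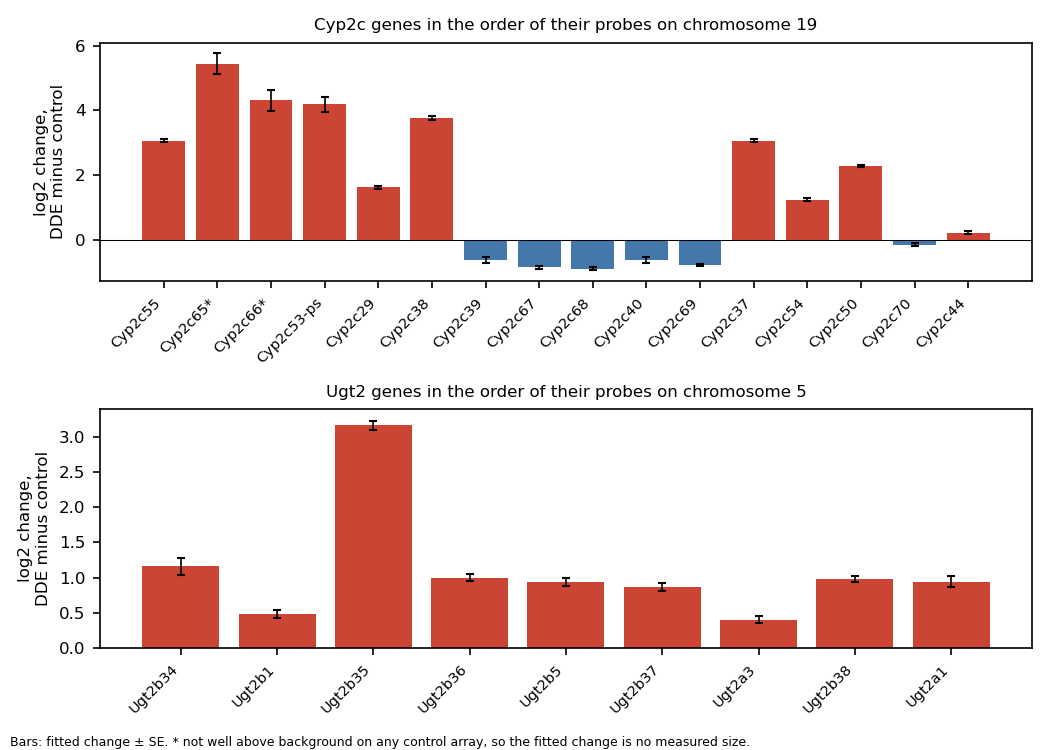
Log2 change (DDE minus control) with its SE for 16 Cyp2c genes and 9 Ugt2 genes, each in the order of its probe along the chromosome. A block of 5 falling Cyp2c genes lies between rising ones, whereas the 9 Ugt2 genes all rose and Ugt2b35 stands above its neighbours; stars mark genes not well above background in control.

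The conjugating enzymes of glucuronic acid rose as a family. UDP-glucuronosyltransferases attach glucuronic acid to drugs, bilirubin, bile acids and steroid and thyroid hormones. All 13 tested rose, with a median of 0.907, and with 5 other scalings all 13 also rose, with medians between 0.799 and 1.14. Ugt2b35 led, from 0.2, 0.32, 0.18 and -0.04 in control to 3.34, 3.28, 3.43 and 3.29 in the DDE group (8.98-fold, adjusted p = 3.02e-11). The other 8 Ugt2 genes of the cluster on chromosome 5 rose by 0.4 to 1.16. Ugdh, which makes the UDP-glucuronic acid that these enzymes use, rose 2.01-fold (adjusted p = 7.99e-08).

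Glutathione S-transferases, which join glutathione to reactive compounds, rose in 15 of 22 genes and fell in 1, with a median of 0.409. Gstm4, of the mu class, read 3.98, 3.99, 4.06 and 4.35 in control and 6.04, 5.83, 5.86 and 5.87 in the DDE group (3.5-fold, adjusted p = 3.64e-08). Gstm6 rose by 1.65 at its brighter probe and by 0.62 at the other. Gstm1, Gstm2 and Gstm3 rose by 0.94, 0.89 and 0.96, Gstt1 and Gstt3, of the theta class, by 0.71 and 0.81, and Gstp1 by 0.8. Of the 7 Gstm genes tested 6 rose, by unequal amounts. Gstm5 rose by 0.14, a call lost with quantile normalisation (0.1), also after normexp (0.08), and in the deposited values (0.04). Gstm7 did not pass the test (-0.01), but did with median centring (0.22).

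Sulfotransferases did not move together: 3 of 11 rose and 3 fell, beside 24% and 26.3% of all genes. Their median of -0.154 was 0.0766 with median centring. Sult1d1 rose at least 2.64-fold from below background, and Sult2a8, a bile acid sulfotransferase, fell 1.94-fold (6.36 to 6.5 against 5.38 to 5.55, adjusted p = 6.4e-07). Carboxylesterases, which hydrolyse ester drugs and lipids, rose in 12 of 14 genes, with a median of 0.442. Ces2a rose 2.78-fold (3.01 to 3.16 against 4.5 to 4.68) and Ces1d, a triglyceride hydrolase, 1.94-fold. Ephx1, the microsomal epoxide hydrolase, rose by 0.89.

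Enzymes of aldehydes and ketones mostly rose. Of 48 tested, 28 rose and 8 fell (median 0.218). Aldh1a7 and Aldh1a1 rose by 1.18 and 0.95, Akr1c19 by 1.2, Akr1b7 by 0.95, Akr1c14 by 0.8, and the carbonyl reductases Cbr1 and Cbr3 by 0.73 and 0.71. The aldo-keto reductase family taken alone was evenly split, with 7 of 17 higher and 7 lower: Akr1cl and Akr1c18 fell by 2.96 and 0.95 on the log2 scale. Aox1, a molybdenum oxidase of drugs and aldehydes, rose 2.83-fold, from 4.66 to 4.78 in control to 6.19 to 6.28 in the DDE group (adjusted p = 5.32e-10). The flavin monooxygenase genes Fmo5 and Fmo2 went opposite ways, Fmo5 rising by 0.47 and Fmo2 falling by 0.55.

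P450 enzymes need heme and electrons from NADPH. Alas1, the rate-limiting enzyme of heme synthesis in the liver, rose 1.77-fold (7.64 to 7.75 against 8.48 to 8.53, adjusted p = 2.51e-08), and Por, the reductase that hands electrons to P450s, rose 1.5-fold (6.68 to 6.76 against 7.23 to 7.38). Of 12 genes of NADPH supply 8 rose and 1 fell. Pgd and H6pd rose by 0.63 and 0.47. The gene that fell was G6pdx, the entry enzyme of the pentose phosphate pathway, from 1.26, 1.27, 1.2 and 1.41 to 0.43, 0.26, 0.19 and 0.3 (1.99-fold, adjusted p = 2.21e-07), so G6pdx and Pgd, the NADPH-producing enzymes of its oxidative branch, went opposite ways.

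Genes that the transcription factor NRF2 is known to drive in response to electrophiles rose in 25 of 33 cases and fell in 2, with a median of 0.541. Gclm and Gclc, the subunits of the enzyme that limits glutathione synthesis, rose by 1.49 and 0.79. Gclm read 3.08 to 3.3 in control and 4.62 to 4.74 in the DDE group (2.81-fold, adjusted p = 1.66e-09). Srxn1, which repairs oxidised peroxiredoxins, rose 2.34-fold and Txnrd1, a thioredoxin reductase, by 0.54, while the classical targets differed in degree: Nqo1 rose by 0.27, and Hmox1 did not pass the test and spread widely in both groups (1.32 to 3.48 against 1.31 to 3.66). Ggt1, which breaks down extracellular glutathione, rose at least 3.06-fold from below background. Of 6 glutathione peroxidases 5 fell, the secreted Gpx3 by 0.67, the ER-resident Gpx8 by 0.6 and the abundant cytosolic Gpx1 by 0.41 on the log2 scale, and Gpx7 rose by 0.35.

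**Figure D3:**
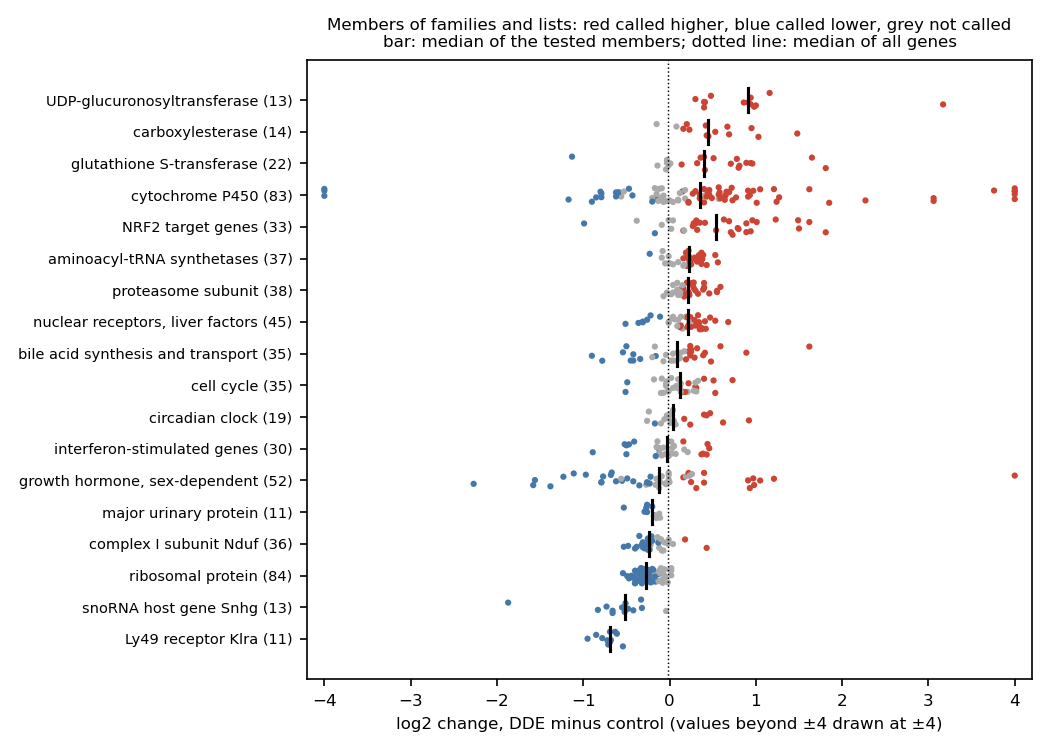
Log2 change (DDE minus control) of each tested member of 18 families and lists, with the number tested in brackets and the median as a bar. The medians of UDP-glucuronosyltransferases, glutathione S-transferases and carboxylesterases lie to the right of the dotted line at the median of all genes (-0.0239), and the ribosomal proteins, Snhg genes and Klra receptors to its left.

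Of 45 nuclear receptors and liver transcription factors 26 rose and 7 fell, by small amounts (median 0.212). CAR itself was called lower at its brightest probe: Nr1i3 read 2.52, 2.64, 2.69 and 2.67 in control and 2.38, 2.38, 2.41 and 2.31 in the DDE group (adjusted p = 0.000928). Its second brightest probe changed by -0.1 and did not pass the limma test (adjusted p = 0.51). The change of -0.26 at the brightest probe was close to the shift that median centring makes. With that setting it was -0.03 (limma adjusted p = 0.695), and the mean of the Nr1i3 probes gave -0.18 (adjusted p = 0.0692), neither of them called. The PXR gene Nr1i2 changed by 0.38 and did not pass, but did so with median centring (0.61, adjusted p = 0.026) and, with limma, without control replicate 3 or DDE replicate 3 (0.55 each). Ahr rose by 0.42 and Keap1, the inhibitor of NRF2, by 0.53. Esr1, the oestrogen receptor, fell by 0.31, a call lost with median centring (-0.07).

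Transporters of drugs split by direction. Abcc3, which exports conjugates into blood, rose 3.07-fold (2.74 to 2.87 against 4.33 to 4.52, adjusted p = 5.47e-10), and Abcc2, its counterpart at the bile canaliculus, rose by 0.39. Slc47a1, Slc22a18 and Slc22a5 rose by 0.76, 0.86 and 0.69. Slc22a30 fell 2.88-fold, from between 0.83 and 0.95 to between -0.81 and -0.55 (adjusted p = 5.15e-09). Abcc5 fell by 0.58. Of 22 such transporters 11 rose and 4 fell, beside 24% and 26.3% of all genes.

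Of 35 genes of bile acids 14 rose and 9 fell, beside 24% and 26.3% of all genes, with a median of 0.0931. The uptake carrier Slc10a1 fell by 0.5 at its brightest probe (8.76 to 8.86 against 8.2 to 8.42). Its dimmer probe went the other way and passed the limma test when fitted in its place (0.25, adjusted p = 0.00952). The mean of the Slc10a1 probes was -0.12 and not called (adjusted p = 0.0653), so the direction for this gene depends on the probe. The basolateral exporter subunit Slc51b fell by 0.78 and the sterol exporters Abcg5 and Abcg8 by 0.54 and 0.45 on the log2 scale. Klb, the coreceptor through which the gut hormone FGF15 represses bile acid synthesis, fell 1.87-fold (-0.42 to -0.31 against -1.39 to -1.17, adjusted p = 9.91e-06), and its partner receptor Fgfr4 rose by 0.48. The rate-limiting synthesis gene Cyp7a1 changed by -0.07 and did not pass the test at its brightest probe, while its other probe changed by -0.52 (adjusted p = 0.0126).

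CAR activation is known to speed the loss of thyroid hormone through glucuronidation. Of 17 genes of thyroid hormone handling 8 rose and 3 fell. Serpina7, the plasma thyroxine-binding globulin, fell 2-fold (1.03 to 1.16 against -0.19 to 0.2, adjusted p = 1.78e-06), with 1 DDE array below the other 3. Dio1, the deiodinase that activates thyroxine and a target of the hormone, rose by 0.32 and the receptor gene Thrb by 0.41. Of 21 retinoid genes 9 rose and 5 fell, among them Cyp26a1 (1.01) and Tgm2 (0.79), targets of retinoic acid, and Aldh1a2 (-0.5), which makes it.

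Genes that depend on growth hormone and sex changed in both directions: 13 of 52 rose and 21 fell, beside 24% and 26.3% of all genes. Their median of -0.122 was 0.109 with median centring. The male-biased Hsd3b5, a steroid dehydrogenase, read 0.96, 0.86, 0.89 and 0.86 in control and -1.33, -1.21, -1.4 and -1.55 in the DDE group and fell 4.81-fold (adjusted p = 2e-07) and the male-biased Elovl3 fell by 0.77. The male-biased Cyp2d9 and Cyp4a12b rose by 1.05 and 0.93. The female-biased group was as mixed, with Cyp2b9 and Cyp2a4 (1.21) higher and Slc22a26 (-1.23) and Abcd2 (-0.97) lower. Cux2, a female-biased repressor of male genes, fell 2.94-fold (-3.55 to -3.1 against -5.18 to -4.22), and its other probe changed by -0.88 (adjusted p = 0.0542). Socs2, which growth hormone induces through STAT5, fell by 0.79, and the binding proteins of IGF1, Igfbp2 and Igfbp1 fell 2.98-fold and 2.15-fold. Igfbp2 read 2.82, 2.87, 3.01 and 3.03 in control and 1.26, 1.31, 1.48 and 1.38 in the DDE group (adjusted p = 1.56e-08).

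Lipid genes changed in both directions. Of 35 genes of triglyceride synthesis and droplets 14 rose and 9 fell, beside 24% and 26.3% of all genes. Mogat1, which makes diacylglycerol, rose 2.51-fold (1.81 to 1.87 against 3.16 to 3.21), Agpat9 rose by 0.83, the hepatic lipase Lipc by 0.66, and the droplet proteins Hsd17b13 and Cidec by 0.61 and 0.57. Pnpla3, a droplet lipase that SREBP-1c drives, read 3.33, 3.37, 3.41 and 3.22 in control and 1.92, 2.23, 2.18 and 2.19 in the DDE group and fell 2.3-fold (adjusted p = 8.45e-07). Its neighbour on chromosome 15, Pnpla5, fell 3.99-fold (adjusted p = 7.98e-08), and the lipogenic genes Acly and Scd1 and their regulator Srebf1 fell by 0.69, 0.42 and 0.41 on the log2 scale. The lipoprotein receptor Vldlr fell 2.61-fold. Plin4, a droplet coat protein of fat cells, fell 2.53-fold alongside adipocyte markers, whose summed level was 5.33 to 5.47 in control and 3.87 to 3.97 in the DDE arrays. The part of fat tissue in this fall was not tested. Fewer cells of a type and less RNA per cell cannot be told apart in such bulk samples.

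Of 43 genes of sugar metabolism 15 rose and 11 fell, beside 24% and 26.3% of all genes. Slc2a1 rose by 0.64 and Pygl, liver glycogen phosphorylase, by 0.39. Ppp1r3c, which targets a phosphatase to glycogen, fell by 0.88 and Mlxipl, the glucose-responsive factor ChREBP, by 0.48. The fructose kinase Khk fell by 0.39. Of 18 enzymes of the citric acid cycle itself 10 rose and 2 fell, and of 9 genes of pyruvate entry 1 rose and 6 fell, Pdk4 by 0.51. In the zonal lists, Oat, a pericentral enzyme that Wnt signals maintain, fell 2.36-fold (6.06 to 6.23 against 4.79 to 4.99, adjusted p = 1.41e-07), the pericentral Lhpp by 0.89 and the periportal Igfbp2 by 1.58, whereas the periportal Cdh1 and Cyp2f2 rose by 0.76 and 0.64. Neither zone moved as a whole: 6 of 23 pericentral genes rose and 9 fell, and 8 of 19 periportal genes rose and 2 fell. Over all genes the shares were 24% and 26.3%.

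Proliferation genes changed little. Of 35 cell cycle genes 9 rose and 2 fell, beside 24% and 26.3% of all genes, with a median of 0.117. Median centring made that 24 higher and 1 lower, with a median of 0.348 beside 0.207 for all genes. Mki67, a marker of dividing cells, changed by -0.04 and Ccnd1, a cyclin that CAR activators raise, by -0.1, and neither passed the test, although Ccnd1 did so with quantile normalisation (-0.16, adjusted p = 0.0152). Myc rose by 0.73 (adjusted p = 0.0015) with groups that overlapped (-2.24 to -1.66 against -1.68 to -1.13), and its other probe did not pass (0.58). E2f1 rose by 0.53. Gadd45b, a known early CAR response gene that limits cell death, rose clearly: it read -0.31, -0.3, -0.31 and -0.4 in control and 1.05, 1.14, 1.11 and 1.07 in the DDE group (2.68-fold, adjusted p = 8.47e-10). Of 20 p53 targets 4 rose and 4 fell, beside 24% and 26.3% of all genes. Cdkn1a did not pass (-0.09). Gdf15, a stress hormone that p53 and the integrated stress response induce, rose 2.95-fold (2.52 to 2.78 against 4.17 to 4.33, adjusted p = 3.73e-09). Cdkn1c and Ddit4l fell by 1.12 and 1.14.

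The Raet1 genes encode ligands that stressed cells show to the NKG2D receptor of natural killer cells, and the 4 tested all rose, a group singled out after its values were seen. Raet1e read -2.08, -1.79, -2.1 and -1.8 in control and -0.11, -0.16, -0.07 and -0.15 in the DDE group (3.53-fold, adjusted p = 1.96e-08). Raet1a, Raet1c and Raet1b rose 3.9-fold, 3.51-fold and 2.67-fold, and no group overlapped. Their probes lie on chromosome 10 and share runs of at most 7 bases. Those of Raet1b (chr10:22093685-22093744) and Raet1a (chr10:22093842-22093901) lie close together, and so do those of Raet1c and Raet1e. Whether such neighbouring probes read 1 transcript was not tested, so the 4 rises may not be independent readings. The 11 Klra genes tested, which encode Ly49 receptors of natural killer cells, all fell, by 0.54 to 0.95 on the log2 scale, and 2 of 55 pairs of their probes share 20 bases or more (at most 42), so those are not independent readings. The T and NK marker sum was 1.97 to 2.22 in control and 1.6 to 1.78 in the DDE group, and its part in the Klra falls was not tested.

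Inflammation genes changed gene by gene. Orm3, an acute-phase protein, rose 3.57-fold and Lcn2, an iron-trapping protein of injured liver, 3.43-fold. Lcn2 read -0.1 to 0.06 in control and 1.69 to 1.84 in the DDE group (adjusted p = 1.88e-09), and its other kept probe rose by 2.48. Saa1, the classical acute-phase gene, did not pass (-0.05) but was called higher with median centring (0.19) and in the deposited values (0.18). Of 16 chemokine genes 3 rose and 9 fell (median -0.189), beside 24% and 26.3% of all genes. With median centring 6 of them were higher and 4 lower (median 0.0419). Cxcl10 rose 3.5-fold and Ccl2 by 1.18, whereas Ccl8 fell 4.58-fold (-0.72 to -0.46 against -2.89 to -2.64). Summed markers of neutrophils were 5.64 to 5.75 in control and 5.31 to 5.43 in the DDE group, and those of monocytes 4.02 to 4.09 and 3.72 to 3.88. Of 5 neutrophil markers 1 rose and 3 fell, and of 4 monocyte markers 1 fell. With median centring 1 neutrophil marker was higher and 1 lower, and 0 monocyte markers were called. The part of these cells in the changes above was not tested. Of 30 interferon-stimulated genes 6 rose and 8 fell, beside shares of 24% and 26.3% over all genes. Oasl1 rose by 0.46 and Gbp3 fell by 0.89, and with median centring 17 of the 30 rose and 5 fell. Of 33 genes of the matrix and of stellate cell activation 12 rose and 7 fell, beside 24% and 26.3% of all genes. Col1a1 rose 1.92-fold (-1.52 to -1.39 against -0.55 to -0.5), Tgfb2 2.18-fold and Mmp19 1.91-fold, while Acta2, the marker of contractile stellate cells, fell by 0.34, a call lost with median centring (-0.1). The summed level of 7 stellate markers was 7.08 to 7.21 in control and 6.97 to 7.06 in the DDE group.

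Iron and stress genes added a few large changes. Tfrc, the transferrin receptor, rose 2.19-fold (-1.25 to -0.98 against -0.22 to 0.17, adjusted p = 1.63e-06). The inducible heat shock gene Hspa1a fell by 0.61 and Cryab by 1.23, and of 28 heat shock proteins 16 rose and 4 fell. Of 19 clock genes 7 rose and 1 fell. Nr1d1 rose by 0.92 (-1.81 to -1.43 against -0.85 to -0.62) and Dbp, a clock output factor, by 0.43.

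Genes of protein handling changed by small amounts, and more of them rose than fell. Of 37 aminoacyl-tRNA synthetases, which load amino acids onto tRNA, 26 rose and 1 fell (median 0.229), Vars by 0.56. Of 38 proteasome subunits 24 rose and the others were not called (median 0.21), with Psmd5, Psmc4 and Psmd11 at 0.59, 0.55 and 0.55. Of 8 oligosaccharyltransferase genes 6 rose, Stt3a by 0.71 and Rpn2 by 0.51, and of 8 genes of the secretory vesicle coat 6 rose, whereas of 23 translocon genes 8 rose and 4 fell (median 0.0175). Of 19 lysosomal genes 16 rose and 2 fell, and of 15 autophagy genes 5 rose and 10 were not called. The cathepsin Ctsz rose by 0.56. Tubb2a and Tuba1c rose by 0.85 and 0.76. Over the scaling used and 5 others, the median of the synthetases lay 0.177 to 0.263 above that of all genes. For the proteasome subunits the margin was 0.18 to 0.249. For the 39 genes of protein entry into the endoplasmic reticulum as a whole it was 0.136 to 0.234. The 34 of autophagy and lysosome as a whole lay 0.221 to 0.322 above all genes.

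Ribosomal protein genes went the other way. Of 84 tested, 64 fell and the other 20 were not called, with a median of -0.278 and a lowest value of -0.541. With median centring the median was -0.0474, 10 fell and 9 rose, so the shift is one relative to other genes. Of 36 complex I subunits, a group added after the values were seen, 23 fell and 2 rose, and with median centring 3 fell and 7 rose (medians -0.236 and -0.005), Ndufb8 by 0.53 and Ndufb4 by 0.48 down and Ndufa10 by 0.43 up. Transcripts that host or are small nucleolar and nuclear RNAs, also added later, fell more: 12 of 13 Snhg genes (median -0.521) and 14 of 15 small RNA genes (median -0.604). Snhg10 and Snhg1 fell by 0.83 and 0.73 and Rnu3b1 and Snora23 by 1.09 and 1.04. The medians of these last 2 groups stayed below 0 with each of 5 other scalings.

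Hepatocyte markers differed little in sum. The summed level of 9 hepatocyte markers was 12.27 to 12.38 in control and 12.2 to 12.23 in the DDE group. Kupffer cell markers went from 5.37 to 5.53 to 5.04 to 5.16, with 5 of 6 falling, Marco by 0.97 on the log2 scale. With median centring 1 of the 6 was lower and 1 higher. Sinusoidal endothelial markers lay at 5.83 to 5.87 and 5.69 to 5.75 and cholangiocyte markers at 3.33 to 3.48 and 3.47 to 3.64, where Krt7 did not exceed background on a single array. B and plasma cell markers fell in 3 of 3 tested genes, from 2.21 to 2.28 to 0.67 to 0.85, where Jchain fell by 1.59 on the log2 scale, and the antibody gene Ighg3 fell 5.31-fold.

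**Figure D4:**
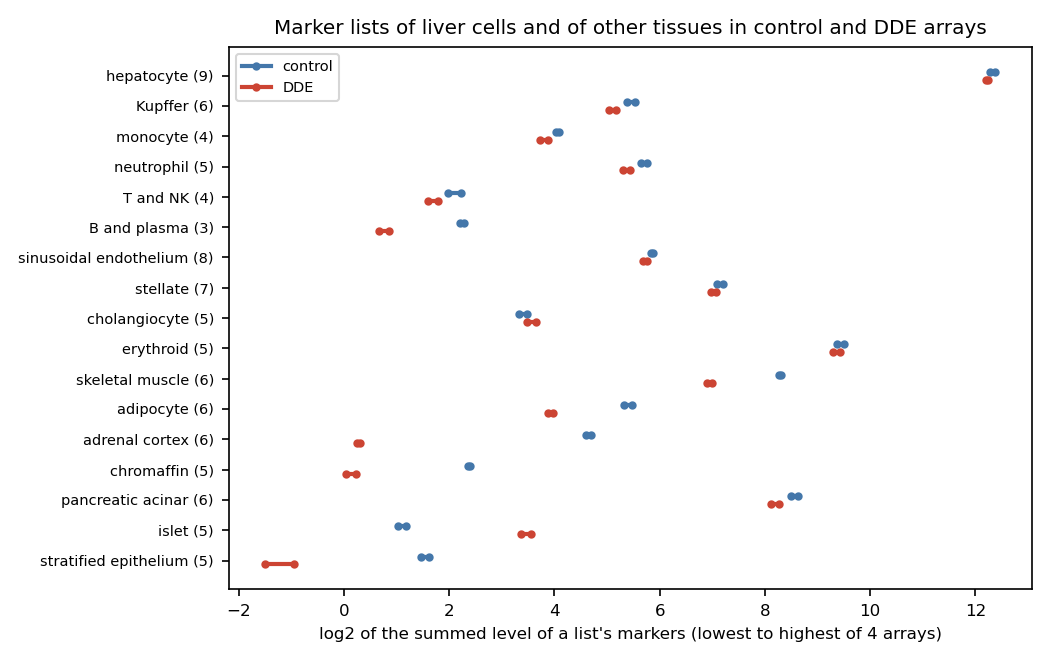
Log2 of the summed level of each marker list, from the lowest to the highest of 4 arrays, in control (blue) and DDE (red) arrays, with the number of markers summed in brackets. The hepatocyte, endothelial, stellate and cholangiocyte lists lie close together, while the adrenal cortex, chromaffin, stratified epithelium, adipocyte, muscle and B and plasma cell lists are lower and the islet list is higher in the DDE arrays.

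Many of the largest changes were in genes of organs other than the liver. Adrenal cortex markers had a summed level of 4.59 to 4.7 in control and 0.24 to 0.3 in the DDE group. Star, which brings cholesterol to steroid synthesis, read 2.17, 2.16, 2.1 and 2.15 in control and -3.2, -3.27, -3.26 and -3.32 in the DDE group, a fall of 42.4-fold (adjusted p = 2.58e-15). Hsd3b1 fell 45.1-fold at the probe used and by 1.76 on the log2 scale at its other probe, Cyp21a1 fell 16.3-fold, and Cyp11b1, Cyp11a1 and Mgarp fell at least 29.3-fold, 21.3-fold and 32.9-fold to below background. The chromaffin genes of the adrenal medulla did likewise: Chgb fell at least 42.7-fold and Pnmt and Dbh, enzymes of adrenaline and noradrenaline synthesis, at least 11.6-fold and 5.56-fold. Their 4 control arrays were close together. The part of adrenal tissue in the control samples was not tested.

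Islet hormones rose in the opposite direction. Ins2 read -0.28, -0.16, -0.25 and -0.13 in control and 2.3, 2.13, 2.22 and 2.13 in the DDE group (5.28-fold, adjusted p = 1.19e-10). Ins1 rose 4.93-fold, Iapp by 2.47, Sst by 2.36, and Gcg at least 5.49-fold at its brightest probe, whereas its other probe changed by 0.05. Pancreatic acinar markers, from the same organ, were slightly lower in the DDE arrays (8.5 to 8.62 against 8.11 to 8.26), with 4 of 6 falling. The 5 markers of stratified epithelium tested all fell, from a summed 1.47 to 1.61 in control to between -1.5 and -0.95 in the DDE group. Keratins as a family were mixed, with 6 of 23 higher and 8 lower, beside 24% and 26.3% of all genes, and a median of -0.105. Krt13 fell by 3.52 on the log2 scale, Ly6d 10.1-fold, Dmkn 7.84-fold, Krtdap 5.89-fold and Lor 5.82-fold, and 18 of 19 Lce genes of the skin barrier fell. All 6 fast muscle markers fell, from a summed 8.27 to 8.3 to 6.9 to 6.99. Of fat, Cfd and Adipoq fell by 2.51 and 2, and Ucp1, the brown fat uncoupler, 3.96-fold (1.25 to 1.32 against -0.81 to -0.55). Prm1 and Tnp1, which package sperm DNA, fell 5.55-fold and 3.85-fold. The part of such tissues in these changes was not tested.

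Other large falls are not in those lists. Ada, adenosine deaminase, read 2.45, 2.5, 2.5 and 2.43 in control and 0.39, 0.33, 0.54 and 0.42 in the DDE group (4.15-fold, adjusted p = 6.14e-10), and its other kept probe fell by 1.98. Adgrv1, an adhesion receptor, fell 4.1-fold (adjusted p = 6.47e-11) and by 2.04 at its other probe. The maternally expressed Meg3 and the paternally expressed Dlk1, from 1 imprinted cluster on chromosome 12, fell 3.83-fold and 8.37-fold. Among rises, the dim Erich4 and Hcn4, a pacemaker channel, rose 12.4-fold and 6.52-fold, Rarres1, which retinoids induce, 3.81-fold, Sprr1a, a precursor of the cornified envelope, 3.82-fold, and Tsku, a secreted protein of the liver, 2.4-fold. The receptor Ret rose at least 3.62-fold and Krt20 at least 3.48-fold from below background. The groups did not overlap for any gene of this paragraph.

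The mice that also drank the must give a second set of arrays on the p,p'-DDE diet. Cyp2b10 averaged 8.93 there and 8.91 without must, and Cyp2b9 7.57 and 7.58, differences that limma did not call (adjusted p = 0.729 and 0.828). The second Cyp2b10 probe read 5.78 to 5.97 with must and 5.53 to 5.69 without, groups that did not overlap, and that difference was not tested. Chil1 averaged 2.53 with must, against 3.68 without and -2.05 in control, whereas Raet1e (-1.75), Gadd45b (-0.34) and Lcn2 (-1.03) stood near or below their control means of -1.94, -0.33 and 0. Star averaged 3.18 with must. Differences between the must and the DDE arrays share the DDE arrays with the comparison above.

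**Figure D5:**
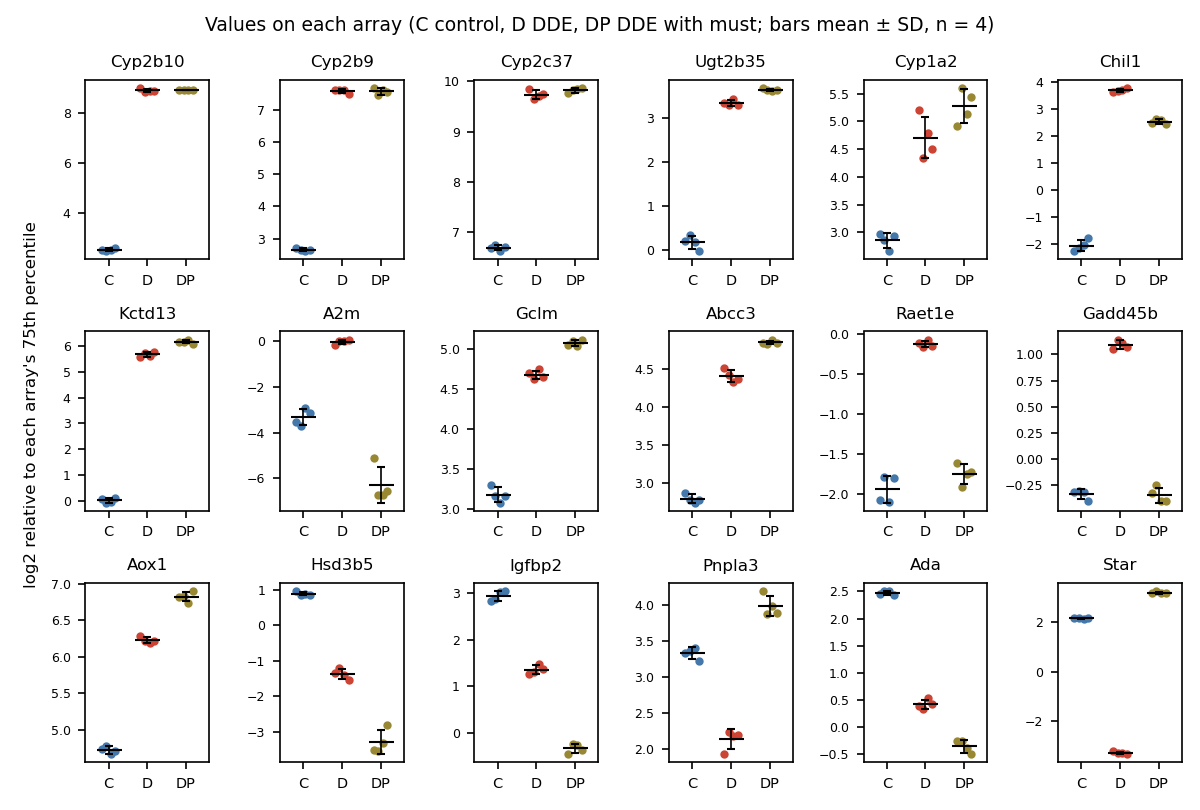
Values of 18 genes on each array (log2 relative to the array's 75th percentile), with 4 points a group and bars of mean ± SD, in control (C), DDE (D) and DDE with must (DP). Control and DDE points do not overlap in any panel, and Cyp1a2 and A2m show the widest spread within a group.

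The 8 arrays lay on 5 slides, and 3 slides held both groups. Within those 3 slides the difference between the DDE and the control array had the direction of the fit for 9308, 9357 and 9349 of the 9403 called genes, and for 772, 770 and 772 of the 773 called at 2-fold or more. Cyp2b10 differed by 6.33, 6.31 and 6.42 within them.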

How the data were processed

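Liver RNA was labelled with Cy3 and hybridised to 1-colour Agilent arrays, per the labels. The authors scanned the arrays and read them with Agilent Feature Extraction 11.5.1.1, and the deposited spot intensity (processed signal, background-subtracted) was the starting point; the submitters' processing notes also name RMA and limma. The deposited log2 values of the series table were used only as an alternative. Probe positions are those of the array design, on mm9, and were laid out for laboratory mouse transcripts; mismatches with Mus spretus were not checked.

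Outlier spots and control spots were left out (0 spots were saturated), log2 intensity was taken relative to the 75th percentile of each array, and spots of a probe were averaged. Of 56605 probes, 27098 were kept that were well above background on every array of at least 1 group. The brightest kept probe stood for its gene (18678 genes, 6103 with several kept probes), and 34 genes lacked a value on an array, where the fit used the others. limma 3.58.1 in R 4.3.3 fitted all 12 arrays by group (9 residual degrees of freedom, moderated variances), with Benjamini-Hochberg adjustment over all genes and a threshold of 0.05.

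On these arrays between 50.12% and 52.01% of spots were well above background. The number of arrays limits the precision. Members of the lists, the lists themselves and the comparison were chosen with earlier results of these data known. Named genes were taken by rule: called genes whose groups do not overlap, by size in each direction, the largest bounds, and the leading and best-known members of each list and family; Med27, Mvp, Nrg1 and Ryr1, named for their disagreeing probes, and the Raet1, Klra, Snhg, small RNA, complex I and Lce groups were chosen after values were seen. Alternatives covered background correction, scaling, the filter on dim probes, the rule for several probes, the fit, the slide or replicate number as a block, and leaving out each array. Same-numbered arrays of the groups correlated between -0.015 and 0.057 in their deviations, so the numbers were not taken as pairs. A few genes are not reported here.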

Additional observations from a re-analysis of the deposited data

Results flagged for a closer look

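Among the genes named above, 29 of 447 groups of 4 arrays (6.49%) held 1 array that stood apart from the other 3 by more than the critical value of Dixon's test. Chance flags about 1 in 20 such groups, and for several genes the gap was small because the other arrays nearly coincided. No gene is read differently here for its odd array, and the causes were not tested.

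The widest gap was that of Hmox1, the heme oxygenase, where control replicate 1 read 1.32 and the other control arrays 3.18 to 3.48. Myc read -1.66 on control replicate 1, against -2.24 to -2.17 on the others. Also on control replicate 1, Elovl3 (0.94), Ggt1 (-4.62), Mvp (-0.31) and Pnmt (-1.26) read lower than the other 3. Klb was highest on control replicate 2 (-0.31), and Srebf1 (5.66) and Ucp1 (1.25) were lowest on control replicate 3. On control replicate 4 Gadd45b was lowest (-0.4), and Gpx3 (0.02) and Raet1c (-2.98) were highest.

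In the DDE group, replicate 1 was highest for Acta2 (3.16), Ctsz (5.97), Cyp2d37-ps (2.59), Dio1 (3.55), Ndufa10 (4.9) and Slc22a18 (6.39), and lowest for Cyp7a1 (2.96) and Serpina7 (-0.19). Replicate 2 was lowest for Akr1b7 (4.85), Khk (8.07), Krt7 (-5.57) and Snhg1 (-2.69) and highest for Ccl8 (-2.64). Replicate 3 was highest for Cyp2j9 (-0.98), Ddit4l (-2.81) and Ighg3 (-3.09). Replicate 4 was lowest for Cyp2b9 (7.48, against 7.6 to 7.62), a gap far smaller than the rise of that gene.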

How the results depend on the processing

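The number of genes called higher lay between 3989 and 4365 when each array was left out in turn, and the number called lower between 4406 and 4863. At 2-fold or more the ranges were 199 to 215 higher and 559 to 587 lower. Median centring gave 9019 genes higher and 2078 lower, 373 of them higher by at least 2-fold, and 81.3% of its calls were higher against 47.7% here. With normexp background correction 93 genes were higher and 220 lower by at least 2-fold, and with normexp and quantile normalisation 106 and 209. Without a filter on dim probes 9864 genes were lower, 893 of them by at least 2-fold. With probes required above background on all 8 arrays, which tests fewer genes, 126 were higher and 353 lower by at least 2-fold. Each gene's second brightest probe, an alternative chosen after seeing the data, turned the sign of Mvp (-0.07), Nrg1 (-0.24), Ryr1 (0.02) and Slc10a1 (0.25). Of these, Nrg1 (adjusted p = 0.0396) and Slc10a1 (adjusted p = 0.00952) passed the limma threshold with the turned sign. The cause was not tested. The replicate numbers do not pair the arrays, and with the number as a block 8785 genes were called, 8596 of them among the calls given above. Of the 224 genes named, 217 kept their direction and side of the threshold with median centring, 220 with the deposited values and all 224 with the block. Dim signals limit the size of falls to below background, which are bounds.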
